A study of Mus musculus with 4 samples.

Results

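Type I interferon-stimulated genes were followed in virus-specific CD8+ T cells that had developed with or without Bcl-3, a nuclear member of the IκB family. The 44 members were taken by gene symbol from the 27998 gene identifiers of the count matrices, and each symbol matched 1 identifier. Every one of the 44 had UMIs (unique molecular identifiers, each counting 1 captured RNA molecule) in every library. All 44 passed the filter on low counts when all cells were summed, and 43 passed in the T cell clusters, where Oas2 did not.

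The libraries came from 2 mixed bone marrow chimeras. Irradiated Rag1-/- hosts received WT (CD45.1, B6.SJL) and Bcl3-/- (CD45.2) marrow in equal parts, were left at least 6 weeks to reconstitute, and were infected intraperitoneally with LCMV Armstrong. On day 8 splenic CD8+ T cells binding the H-2Db-GP33 tetramer were sorted by CD45 allele and captured on the 10x 3′ platform. WT1 and KO1 are the WT and Bcl3-/- libraries of chimera 1, and WT2 and KO2 are those of chimera 2, so each genotype has n = 2 and same-numbered libraries come from 1 animal. The groups share the host genotype, the irradiation, the infection and the day. CD45 allele, marrow donor strain and Bcl3 genotype cannot be told apart in this design, the Rag1-/- hosts keep myeloid cells of their own, and no age of the animals is given in the sources used here. The genotype question is whether members differ between Bcl3-/- and WT cells that shared an animal.

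Type I interferons bind the IFNAR1-IFNAR2 receptor, whose kinases JAK1 and TYK2 activate the ISGF3 complex. This complex holds STAT2 and IRF9 and binds the interferon-stimulated response element (ISRE) in the promoters of antiviral genes. The products sense viral nucleic acid, block viral translation and release, or feed back on the pathway. In acute LCMV infection type I interferon comes early, and it acts on CD8+ T cells directly.

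The ISRE core was taken as GAAA, any 2 bases and GAAA again (TTTC, any 2 bases and TTTC on the opposite strand). It was searched on both strands of RefSeq promoters (GRCm38.p6) over the 250 bases before the annotated start and not after it. It was present in 15 of the 35 members that had a promoter entry (42.9%), against 3.46% of all 27025 genes with one. Windows of 30 bases are shown for 5 members whose values are described below, on the strand of the gene, with the core in capitals.
Isg15: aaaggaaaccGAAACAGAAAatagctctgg
Ifit1: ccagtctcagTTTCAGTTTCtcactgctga
Ifit3: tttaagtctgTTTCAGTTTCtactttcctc
Oas1a: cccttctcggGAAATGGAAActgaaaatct
Bst2: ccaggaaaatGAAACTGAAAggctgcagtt

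These windows lie at chr4:156200865-156200894 (Isg15, minus strand), chr19:34640794-34640823 (Ifit1, plus), chr19:34583397-34583426 (Ifit3, plus), chr5:120907526-120907555 (Oas1a, minus) and chr8:71537577-71537606 (Bst2, minus). The first base of the core is 66, 85, 122, 20 and 124 bases before the annotated start, in the same order. Each of these promoters holds at least 1 further match, which overlaps the one shown in Isg15, Oas1a and Bst2. Ifit1 and Ifit3 carry the same core, TTTCAGTTTC, and both genes lie on chromosome 19 within the Ifit cluster. The gamma-activated site, TTCNNNGAA, was in 4 of the 35 promoters (11.4%, against 8.13% of all genes), and the NF-κB consensus in 3 (8.57%, against 4.46%). A match is a match of letters and was not tested as a binding site.

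Barcodes were kept as cells where 500 or more genes were found and mitochondrial genes took no more than 10% of the UMIs, which left 4941 cells in WT1, 5366 in KO1, 8092 in WT2 and 6494 in KO2. The depth was similar in sum, from 20358780 (WT2) to 22922219 (KO1) UMIs per library over all barcodes, but the median per kept cell was 3571 in WT1, 3620.5 in KO1, 2019 in WT2 and 2948 in KO2. Pairs of libraries shared 37 to 63 cell barcodes, near the 35.96 to 71.27 that random draws from the kit's barcodes would give. Cd3d was at 14.6, 14.2, 14.3 and 13.4 UMIs per 10000 in WT1, KO1, WT2 and KO2, and Cd8b1 at 19.1, 20.3, 17.2 and 20.4. Both are defining genes of CD8 T cells and were high in every library. Cd4 stayed below 0.03 per 10000 in every library. Cd3e was at 4.77, 7.98, 4.05 and 9.13, above WT in both Bcl3-/- libraries. Levels of different genes are set side by side on this scale because a 3′ tag counts each molecule once, whatever its length. Genes that share 3′ sequence with others, such as Phf11c (49.9%), Oas1a (41.2%) and Phf11b (19.1%), are excepted, since a shared tag does not tell the genes apart.

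Bcl3 itself was at 0.332 UMIs per 10000 in WT1, 0.276 in KO1, 1.08 in WT2 and 0.866 in KO2. The level differed more between the animals than between the genotypes. Its log2 fold change was -0.33 ± 0.58 (SE) with an adjusted p of 0.837, and -0.31 ± 0.08 with an adjusted p of 0.0201 with the chimera as block. Which part of the gene was deleted is not stated in the sources, so 3′ tags of Bcl3 do not check the labels, and Bcl3-/- below means the libraries labelled so.

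Summed over the 44 members, interferon-stimulated UMIs were 33.3 per 10000 in WT1, 28.9 in KO1, 43.7 in WT2 and 34.5 in KO2. The sum was lower in Bcl3-/- cells than in WT cells of the same animal, by 13% in chimera 1 and 21.1% in chimera 2. The genotypes overlapped, because KO2 lay above WT1. Means were 38.5 ± 7.36 in WT and 31.7 ± 3.91 in Bcl3-/- (SD, n = 2), a difference of -6.77 that is smaller than the SD between WT libraries. Without WT1, KO1, WT2 or KO2 the difference was -11.97, -4.01, -1.56 or -9.53. Leaving out a WT library thus moved it more than leaving out a Bcl3-/- library. With 2 libraries per genotype, leaving out either library of a genotype shifts it by equal and opposite amounts. Wilson 95% intervals, which cover counting error only, were 33.02 to 33.53, 28.72 to 29.17, 43.39 to 43.98 and 34.22 to 34.72.

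Ifi27l2a alone held 17.3%, 14.3%, 23.9% and 17.9% of the member UMIs in WT1, KO1, WT2 and KO2. Without it the sums were 27.5, 24.8, 33.3 and 28.3 per 10000 and the difference was -3.82. The direction within each animal was the same, with a smaller difference. Chimera 2 was above chimera 1 in both genotypes for 38 of the 44 members, against 47.1% of all genes tested, and below it in both for Phf11d.

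Markers of other cell types were present in the sorted material. The 10 genes of the neutrophil list, led by S100a8 and none of them at 0, summed to 16.5 per 10000 in WT1, 28.5 in KO1, 10.8 in WT2 and 32.2 in KO2 over all cells, and to 5.64, 5.92, 1.93 and 4.02 in the T cell clusters. The Bcl3-/- library was above its WT partner in both animals, over all cells and in the T cell clusters, where the step in chimera 1 was small. The 11 monocyte or macrophage genes, led by Lyz2 and none at 0, ran the other way, at 19.0, 17.4, 22.9 and 18.6 over all cells and 7.92, 7.34, 8.38 and 7.09 in the T cell clusters. The 7 dendritic cell genes, led by H2-Ab1 and none at 0, were at 4.53, 4.06, 5.05 and 4.01 and at 1.57, 1.21, 1.51 and 0.941. For both lists each Bcl3-/- library lay below both WT libraries, in the T cell clusters too, the same direction as the members, and the part of these cells or their free RNA in the members' values was not tested. The clusters named as other cell types held 9.86%, 11.4%, 8.45% and 9.35% of the member UMIs. In the T cell clusters the member sum was 32.7, 28.1, 43.7 and 34.3 per 10000, the same order as over all cells, with a difference of -7.05.

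Barcodes with 10 to 100 UMIs, which hold mostly free RNA, carried members at 38.1 per 10000 in WT1, 32.3 in KO1, 44.5 in WT2 and 39.1 in KO2. Free RNA thus held the members at a level at or above that of the cells, with the same direction between the genotypes of each animal. Its part in the cells' values was not tested.

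**Figure D1:**
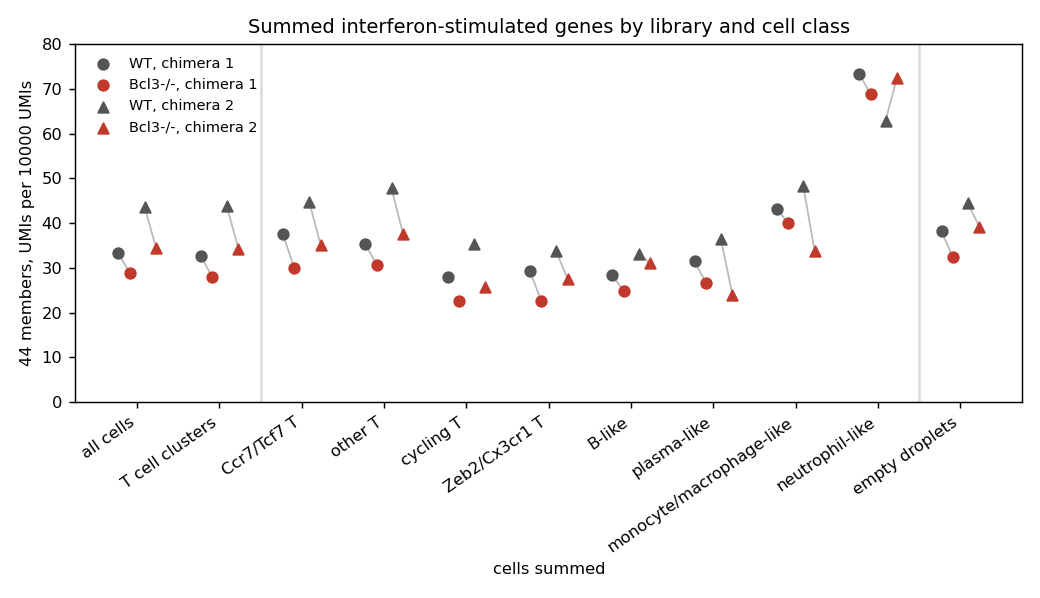
Summed UMIs of the 44 members per 10000 UMIs (vertical axis, linear from 0) for each set of cells (horizontal axis), with 1 point per library, grey for WT, red for Bcl3-/-, circles for chimera 1 and triangles for chimera 2, and grey lines joining libraries of 1 animal in the sets compared between genotypes (cycling T cells are not). Over all cells the points run from 28.9 to 43.7, and in the joined sets the Bcl3-/- point is below its WT partner but for the neutrophil-like cells of chimera 2, where the counting intervals overlap at their edge.

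Genotypes were compared gene by gene with edgeR's quasi-likelihood test on counts summed per library, with p-values adjusted over all 11566 genes tested. Without the chimera in the model none of the 44 members passed an adjusted p of 0.05, where 0.363% of all genes did. At an unadjusted p under 0.05 there were 16 members (36.4%, where 15.6% of all genes were), 15 of them lower in Bcl3-/- cells, and the lowest adjusted p was 0.0975 (Samd9l). The median log2 fold change of the members was -0.27, against 0.01 for all genes. DESeq2 called 3 members lower, Isg15, Oas1a and Samd9l, where it called 0.661% of all genes lower.

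With the chimera as a replicate block, since same-numbered libraries come from 1 animal, 16 members were lower in Bcl3-/- cells and Phf11c was higher. The 16 are 36.4% of the members, where 4.84% of all genes were lower, and the single higher member is 2.27%, where 4.81% of all genes were higher. Their log2 fold changes ran from -0.90 to -0.29 with a median of -0.39. All 16 were lower in both animals, which their selection by the blocked fit makes likely. In 12 of them both Bcl3-/- libraries lay below both WT libraries. The same selection favours this too, so the 12 are not compared with the share over all genes. The blocked model leaves 1 residual degree of freedom. Thinning an equal number of cells per library to 1000 UMIs gave 11 lower members of 43 in the blocked fit, where 3.12% of all genes were lower. The 5 calls lost there were Irf7, Zbp1, Ifit1bl1, Parp14 and Isg20.

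The unblocked calls moved with single libraries. Without WT1 there were 5 lower members (Ifi27l2a, Ifit3, Isg15, Rtp4 and Samd9l), where 0.542% of all genes were lower. Without KO1 there were 2 (Oas1a and Phf11d), where 0.446% of all genes were lower. Without WT2 or without KO2 there was none. All 16 members called with the block kept a negative unblocked value with any library left out, but for 10 of them the value moved by over 1.5 times, for 9 without WT2, 4 without KO2, 3 without WT1 and 3 without KO1. These 10 were Irf7, Ifit1, Ifit1bl1, Ifit3, Oas1a, Parp14, Ifi27l2a, Ifi47, Rtp4 and Isg20. The rule of 1.5 times is a ratio and flags a loss of size sooner than an equal gain. The counts per library therefore do not rank the libraries by influence.

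In the T cell clusters alone the edgeR fit without the block called none of 43 members, where 0.279% of all genes were called, with 15 members at an unadjusted p under 0.05, where 14.2% of all genes were, and 14 of the 15 lower. DESeq2 called the same 3 members lower as over all cells, where 0.558% of all genes were lower. With the block 16 members were lower (37.2%, where 5.85% of all genes were) and Phf11c was higher (where 5.78% of all genes were). Of the 17 calls 16 were shared with the fit over all cells, Parp14 being called over all cells only and Ifi44 in T cell clusters only. Without WT1 2 members were lower, Ifit3 and Samd9l, where 0.0695% of all genes were. Without KO1 2 were lower, Oas1a and Phf11d, where 0.709% were, and without WT2 or KO2 none was.

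A stricter gate kept cells with a T cell transcript and no UMI of Cd79a, Jchain, Lyz2, S100a8, Siglech or Hba-a1. It kept 20.5%, 14.2%, 46.4% and 31.2% of the cells of WT1, KO1, WT2 and KO2. The fits called Isg15 lower without the block (where 0.179% of all genes were lower) and 15 members lower with it (where 1.99% were), and none higher. Isg20 (-0.50, adjusted p = 0.112), Phf11c (0.54, adjusted p = 0.0643) and Ifi44 (-1.36, adjusted p = 0.223), called in the T cell clusters, were not called there.

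By direction alone, 30 of 44 members (68.2%) were lower in Bcl3-/- cells in both animals, where 31.1% of all genes were, and 3 were higher in both, where 36.2% of all genes were. Both Bcl3-/- libraries lay below both WT libraries for 15 members (34.1%, where 18.8% of all genes did so) and above them for Slfn2 and Phf11c (where 25.7% of all genes did so). The remaining 11 members had opposite directions in the 2 animals.

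**Figure D2:**
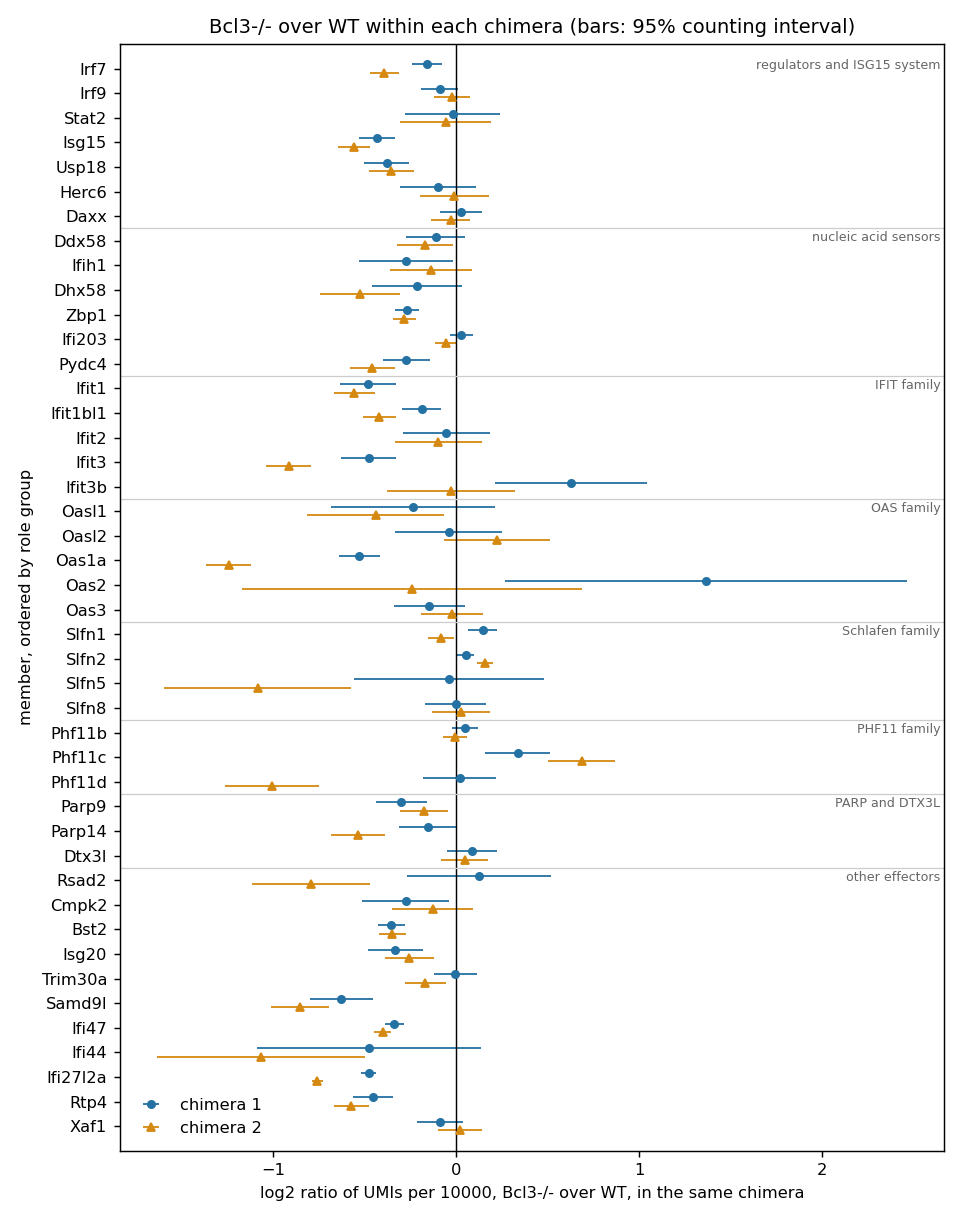
The log2 ratio of UMIs per 10000, Bcl3-/- over WT of the same animal (horizontal axis), for each of the 44 members in role order (vertical axis), with blue circles for chimera 1, orange triangles for chimera 2 and bars for the 95% counting interval. Points left of 0 are lower in Bcl3-/- cells, which holds in both animals for 30 members, and Oas1a in chimera 2 lies at -1.24.

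Among the regulators and the ISG15 system, 3 of 7 members were lower with the block and none was higher. Over all genes 4.84% were lower and 4.81% higher. Irf7 (chr7:141262706-141266481), the transcription factor that amplifies interferon production, was at 1.16 UMIs per 10000 in WT1, 1.04 in KO1, 1.45 in WT2 and 1.10 in KO2. Both Bcl3-/- libraries were below both WT libraries, and the smaller step was in chimera 1. Its log2 fold change was -0.29 ± 0.08 (SE, adjusted p = 0.0287) with the block and -0.30 ± 0.11 (adjusted p = 0.263) without it. With equal thinned cells the blocked call was lost (-0.25, adjusted p = 0.129), and without WT2 the unblocked value was -0.17.

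Isg15 (chr4:156199424-156200818), a ubiquitin-like modifier that is attached to host and viral proteins, was at 0.935 in WT1, 0.693 in KO1, 1.23 in WT2 and 0.836 in KO2. The Bcl3-/- libraries were the lower pair and did not overlap the WT pair. The log2 fold change was -0.51 ± 0.07 (adjusted p = 0.000571) with the block and -0.52 ± 0.13 (adjusted p = 0.151) without. Usp18, the protease that removes ISG15 and dampens receptor signalling, was at 0.572, 0.439, 0.609 and 0.477, again with no overlap. Its steps were of like size in the 2 animals, and it fell by 0.38 ± 0.08 on the log2 scale with the block (adjusted p = 0.00627, and 0.12 without).

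The other regulators were near level between genotypes. Irf9 and Stat2, the DNA-binding and activating subunits of ISGF3, the E3 ligase Herc6 and the chromatin factor Daxx had blocked log2 fold changes from -0.07 to -0.02, with no adjusted p under 0.59. Irf9 was at 0.753, 0.707, 0.817 and 0.804 per 10000 and Stat2 at 0.114, 0.113, 0.130 and 0.125. For both, chimera 2 stood above chimera 1 and the genotypes overlapped.

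Of the 6 nucleic acid sensors, Zbp1 and Pydc4 were lower with the block, where 4.84% of all genes were. Zbp1, a sensor of Z-form nucleic acid that can start necroptosis, was at 1.86 in WT1, 1.55 in KO1, 2.13 in WT2 and 1.75 in KO2. The genotypes did not overlap, and the log2 ratio within the animal was -0.27 in chimera 1 and -0.28 in chimera 2. It fell by 0.29 ± 0.07 with the block (adjusted p = 0.013, and 0.231 without), a call lost with equal thinned cells (-0.24, adjusted p = 0.086).

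Pydc4, a PYHIN family gene on chromosome 1, was at 0.516, 0.426, 0.623 and 0.453, with both Bcl3-/- libraries below both WT libraries. It fell by 0.38 ± 0.08 with the block (adjusted p = 0.0108, and 0.159 without), and 5.71% of its 3′ sequence is shared with Ifi208 and Ifi206. Ifi203, another PYHIN gene, was at 1.905, 1.94, 2.1705 and 2.09. It differed by animal more than by genotype, with a blocked log2 fold change of -0.03 ± 0.07 (adjusted p = 0.831). The cytosolic RNA sensors Ddx58 (RIG-I), Ifih1 (MDA5) and their regulator Dhx58 (LGP2) were low, at means of 0.137 to 0.312 per 10000, with blocked log2 fold changes of -0.39 to -0.16 and no adjusted p under 0.112.

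The IFIT proteins bind viral RNA and block its translation. Of the 5 genes 3 were lower with the block, where 4.84% of all genes were. Ifit1 (chr19:34640871-34650009) was at 0.388 in WT1, 0.278 in KO1, 0.782 in WT2 and 0.531 in KO2. The genotypes overlapped, since both libraries of chimera 2 were above both of chimera 1, while within each animal the Bcl3-/- library was lower. Its log2 fold change was -0.54 ± 0.08 (adjusted p = 0.000856) with the block and -0.55 ± 0.34 (adjusted p = 0.486) without. The unblocked value was -0.95 without WT1, -0.20 without KO1, -0.01 without WT2 and -1.03 without KO2.

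Ifit3 (chr19:34583531-34588731) was at 0.409, 0.293, 0.711 and 0.377, so that neither Bcl3-/- library reached the WT values. The step was -0.48 in chimera 1 and -0.92 in chimera 2 on the log2 scale, and the blocked value was -0.72 ± 0.10 (adjusted p = 0.000666, and 0.21 without). The unblocked value of -0.76 became -0.34 without WT2. Its 3′ sequence is shared with Ifit3b over 4.72% of its length, and reads of that part do not tell the genes apart. Ifit1bl1 was at 0.698, 0.612, 1.11 and 0.827, lower in Bcl3-/- within each animal with overlapping groups. It fell by 0.32 ± 0.08 with the block (adjusted p = 0.0204, and 0.456 without), and the unblocked value ran from -0.62 without WT1 to -0.02 without WT2. With equal thinned cells its blocked call was lost (-0.28, adjusted p = 0.0946). Ifit2 and Ifit3b were at or below 0.146 per 10000 in every library and passed neither fit.

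The OAS family includes enzymes that make the second messenger that activates RNase L. Of its 5 genes here 1 was lower with the block, where 4.84% of all genes were. Oas1a (chr5:120896256-120907521) was at 0.766 in WT1, 0.530 in KO1, 0.835 in WT2 and 0.353 in KO2. KO2 stood lowest, and the step in chimera 2 (-1.24 on the log2 scale) was larger than in chimera 1 (-0.53). It fell by 0.90 ± 0.13 with the block (adjusted p = 0.000589, and 0.135 without). The unblocked value of -0.86 became -0.56 without KO2. Of its 3′ sequence 41.2% is shared with Oas1g, so its level and its difference are uncertain between the paralogs.

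The other OAS genes were sparse. Oasl1, Oasl2, Oas2 and Oas3 had means from 0.00854 to 0.240 per 10000 and no adjusted p under 0.248 with the block over all cells. Oasl2 turned with the cells summed, at 0.07 over all cells and -0.61 in the T cell clusters (adjusted p = 0.121), where its level was 0.0335, 0.0221, 0.0432 and 0.0286. Oas2 had so few UMIs that its blocked log2 fold change of 0.48 ± 0.50 carries no direction.

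None of the 4 Schlafen genes passed with or without the block. Slfn2, a Schlafen gene that keeps T cells quiescent, was the second most abundant member over WT1, KO1 and KO2 at 3.70 in WT1, 3.83 in KO1, 3.81 in WT2 and 4.25 in KO2. Both Bcl3-/- libraries were above both WT libraries by a small step, and the blocked log2 fold change was 0.09 ± 0.07 (adjusted p = 0.468). Slfn1 was at 1.16, 1.29, 1.53 and 1.44, higher in Bcl3-/- in chimera 1 and lower in chimera 2, with a blocked value of 0.01 ± 0.08 (adjusted p = 0.945) and -0.02 (adjusted p = 0.912) in the T cell clusters. Slfn5 and Slfn8 passed neither fit.

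Phf11c, a PHD-finger gene on chromosome 14, was the 1 member called higher with the block. It was at 0.213 in WT1, 0.269 in KO1, 0.196 in WT2 and 0.315 in KO2, with both Bcl3-/- libraries above both WT libraries. It rose by 0.49 ± 0.11 on the log2 scale with the block (adjusted p = 0.0103, and 0.133 without). Of its 3′ sequence 49.9% is shared with Phf11d, Phf11b and Phf11a, so this value is uncertain between the copies. Its neighbour Phf11b was at 1.52, 1.57, 1.79 and 1.78, level between genotypes in each animal (blocked 0.00 ± 0.07, adjusted p = 0.986). Phf11d was at 0.191, 0.193, 0.177 and 0.0883, with KO2 standing below the other libraries.

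The PARP and DTX3L group holds ADP-ribosyltransferases and a partner ubiquitin ligase. Parp14 was at 0.326 in WT1, 0.293 in KO1, 0.437 in WT2 and 0.301 in KO2. Both Bcl3-/- libraries were below both WT libraries, by little in chimera 1. It fell by 0.36 ± 0.11 with the block (adjusted p = 0.0448, and 0.255 without). The blocked call was lost in the T cell clusters (-0.32, adjusted p = 0.0516) and with equal thinned cells (-0.26, adjusted p = 0.276). In the gated T cells the blocked fit called it, at -0.58 (adjusted p = 0.03225). Without WT2 the unblocked value was -0.19. Parp9 and Dtx3l, which share a promoter region on chromosome 16 and act as a complex, had blocked log2 fold changes of -0.25 and 0.05 and did not pass.

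The remaining 11 effectors held the largest share of the UMIs, and 6 were lower with the block, where 4.84% of all genes were. Ifi27l2a (chr12:103442167-103443680), a small interferon-induced membrane protein gene and the most abundant member, was at 5.76 in WT1, 4.13 in KO1, 10.4 in WT2 and 6.16 in KO2. KO2 exceeded WT1, so the groups overlapped, while the Bcl3-/- library was lower within each animal. Its log2 fold change was -0.64 ± 0.08 (adjusted p = 0.00026) with the block and -0.67 ± 0.26 (adjusted p = 0.298) without. The unblocked value was -1.02 without WT1 and -0.23 without WT2.

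Ifi47, an immunity-related GTPase, was at 3.08 in WT1, 2.44 in KO1, 3.94 in WT2 and 2.98 in KO2. The Bcl3-/- libraries were the lower pair, and it fell by 0.39 ± 0.07 with the block (adjusted p = 0.00271, and 0.237 without), the unblocked value going from -0.39 to -0.24 without WT2. Bst2 (tetherin, chr8:71534255-71537456), which holds budding virions at the cell surface, was at 1.4996, 1.17, 1.64 and 1.29. The genotypes did not overlap and the step was -0.35 in both animals, with a blocked value of -0.37 ± 0.07 (adjusted p = 0.00352, and 0.14 without).

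Samd9l, an antiviral factor that restrains proliferation, was at 0.325 in WT1, 0.210 in KO1, 0.448 in WT2 and 0.248 in KO2. The genotypes were well apart in each animal, and it fell by 0.76 ± 0.10 with the block (adjusted p = 0.000272) and by 0.77 ± 0.14 without (adjusted p = 0.0975). Rtp4, a chaperone-like antiviral gene, was at 0.745, 0.543, 1.08 and 0.726. KO2 lay just under WT1, so the groups did not overlap, and the blocked value was -0.53 ± 0.07 (adjusted p = 0.000469, and 0.229 without), with the unblocked -0.54 at -0.29 without WT2. Isg20, an RNA exonuclease, was at 0.378, 0.300, 0.488 and 0.408 with overlapping groups, and fell by 0.31 ± 0.08 with the block (adjusted p = 0.0333, and 0.369 without). This call was lost with equal thinned cells (-0.38, adjusted p = 0.0647) and in the gated T cells, and the unblocked value was -0.15 without KO1 and -0.15 without WT2.

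Ifi44 was rare, at 0.0243, 0.0174, 0.0369 and 0.0177 per 10000, which is 49, 38, 71 and 38 UMIs. Over all cells its blocked log2 fold change was -0.80 ± 0.27 (adjusted p = 0.0851), and in the T cell clusters it was -1.13 (adjusted p = 0.0382), a call lost in the gated T cells (adjusted p = 0.223). Rsad2 (viperin), Cmpk2, Trim30a and Xaf1 had blocked log2 fold changes from -0.39 to -0.05 and no adjusted p under 0.27. In sum over role groups, the blocked median log2 fold change was -0.07 for the regulators, -0.26 for the sensors and -0.32 for IFIT. It was -0.10 for OAS, 0.00 for Schlafen, 0.00 for PHF11, -0.25 for PARP and DTX3L and -0.39 for the other effectors. In the T cell clusters the OAS median was -0.50, over 4 genes, since Oas2 was not tested there.

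Cell classes were found by clustering each library alone with the members and 2 further interferon lists left out of the variable genes. Classes were named from markers, no test was made between them, and doublets were not removed. Clusters that met no marker rule are called other T cells. They are a mixture, and several are led by genes of a named class. KO1 cluster 1 (898 cells) and KO2 cluster 2 (1219 cells) were led by Il7r and Tcf7, KO1 cluster 2 (850 cells) by the haemoglobin genes Hbb-bs, Hba-a1 and Hba-a2, KO2 cluster 5 (358 cells) by the mitosis genes Ccnb2 and Cenpa, and KO2 cluster 13 (57 cells) by the macrophage genes C1qa, C1qc and C1qb. On the WT side, WT1 cluster 3 (642 cells, 45.1 per 10000) had the members Ifit1, Ifit3, Isg15 and Ifit1bl1 among its 10 leading genes, with Il7r, and WT2 cluster 0 (1354 cells, 58.2 per 10000) had Ifit1, Ifit3, Isg20 and Isg15. In KO2, Ifit1 was among those of cluster 2 and Ifit3 among those of cluster 4 (398 cells). Without cluster 13, left out after its leading genes were seen, the KO2 sum in the T cell clusters was 34.25 in place of 34.3, and the blocked fit called 18 members lower (where 6.69% of all genes were) in place of 16, Parp14 and Phf11d being added. Neutrophil-like clusters held the members at 73.3 per 10000 in WT1, 68.8 in KO1, 62.9 in WT2 and 72.5 in KO2, the highest of the 8 classes in every library. These were few cells, 42, 112, 32 and 102, or 0.85%, 2.09%, 0.395% and 1.57% of the library, in a sort for CD8+ T cells. Monocyte/macrophage-like clusters were at 43.1, 40.02, 48.4 and 33.7, above every T cell class in WT1 and KO1, within counting error of the highest in WT2, and below 2 of the 4 T cell classes in KO2.

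Among T cells, the Ccr7/Tcf7 clusters were at 37.5, 29.96, 44.8 and 35.1 per 10000 and the Zeb2/Cx3cr1 clusters at 29.3, 22.6, 33.7 and 27.5. In every library the Zeb2/Cx3cr1 cells were below the Ccr7/Tcf7 cells. Both Bcl3-/- libraries also held Il7r- and Tcf7-led cells outside the Ccr7/Tcf7 class, the 2 clusters named above, at 32.7 in KO1 and 38.8 in KO2, so cells high in Tcf7 were not all in this class. Il7r was also among the leading genes of WT1 cluster 3, outside the class. Cd4 was among the 10 leading genes of the KO1 Ccr7/Tcf7 cluster (172 cells) and of none of the other 3. The other T cell clusters were at 35.4, 30.6, 47.8 and 37.5, and at 37.9 in KO2 without clusters 5 and 13.

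Cycling T cells were not compared between genotypes as a class, because WT1 cluster 8, WT2 cluster 8 and KO2 cluster 7 had more haemoglobin genes than cycling markers among their 10 leading genes. Clusters led by the mitosis genes Ccnb2 or Cdc20 held members at 33.7 in WT1 (cluster 4), 25.2 in KO1 (cluster 5), 45.1 in WT2 (cluster 8) and 34.9 in KO2 (cluster 9). The KO2 cluster 5, led by the same kind of genes, was at 34.2. The remaining cycling clusters were at 25.6 and 21.7 in WT1, 19.3 and 22.0 in KO1, 30.7 in WT2, and 21.7 and 24.6 in KO2. Outside the T cells, B-like clusters were at 28.4, 24.8, 33.2 and 31.04 and plasma-like clusters at 31.5, 26.6, 36.6 and 24.02.

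Within each animal the Bcl3-/- sum was below the WT sum in the classes compared, except for the neutrophil-like cells of chimera 2. The Wilson 95% intervals overlapped for the B-like cells of chimera 2 (31.21 to 35.34 in WT2, 29.28 to 32.89 in KO2) and for the neutrophil-like cells of both animals (67.92 to 79.09 in WT1 and 65.75 to 71.96 in KO1, 57.09 to 69.3 in WT2 and 69.15 to 76.0 in KO2). In chimera 2 the neutrophil-like intervals met only at their edge, and this step, against the direction of the rest, was not tested. The classes also depended on the clustering. At resolution 0.4 the chimera 1 values were 37.47 and 34.4 in Ccr7/Tcf7 cells, with 69 KO1 cells in place of 172, and 33.7 and 22.8 in Zeb2/Cx3cr1 cells, with 1819 WT1 cells in place of 808. In the Ccr7/Tcf7 clusters 20 of the 30 members with at least 10 UMIs in every library were lower in both animals and 2 were higher, where 29.3% of all genes with as many UMIs there were lower and 27.8% higher. In the Zeb2/Cx3cr1 clusters these were 21 and 7 of 37 (29.1% and 32.3% of all genes) and in the other T cells 30 and 4 of 43 (28.4% and 35.2%). The lower members were the larger count in each of these T cell classes. The other T cells are the mixture described above, including clusters led by haemoglobin or mitosis genes, so unlike cells may be compared.

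In the monocyte/macrophage-like clusters 18 of 37 were lower and 4 higher (26.0% and 30.0% of all genes). In the B-like clusters 5 of 18 were lower and 4 higher (34.5% and 22.7%), in the neutrophil-like clusters 4 and 3 of 11 (31.9% and 18.4%), and in the plasma-like clusters 7 and 4 of 12 (27.9% and 28.1%). The B-like and neutrophil-like counts were near level between the directions. Whether the neutrophil-like and monocyte/macrophage-like cells came from the host or from the sorted donor was not tested. The CD45 allele of the hosts is not given in the sources used here. In these classes the library label may therefore not stand for the Bcl3 genotype of the cells.

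**Figure D3:**
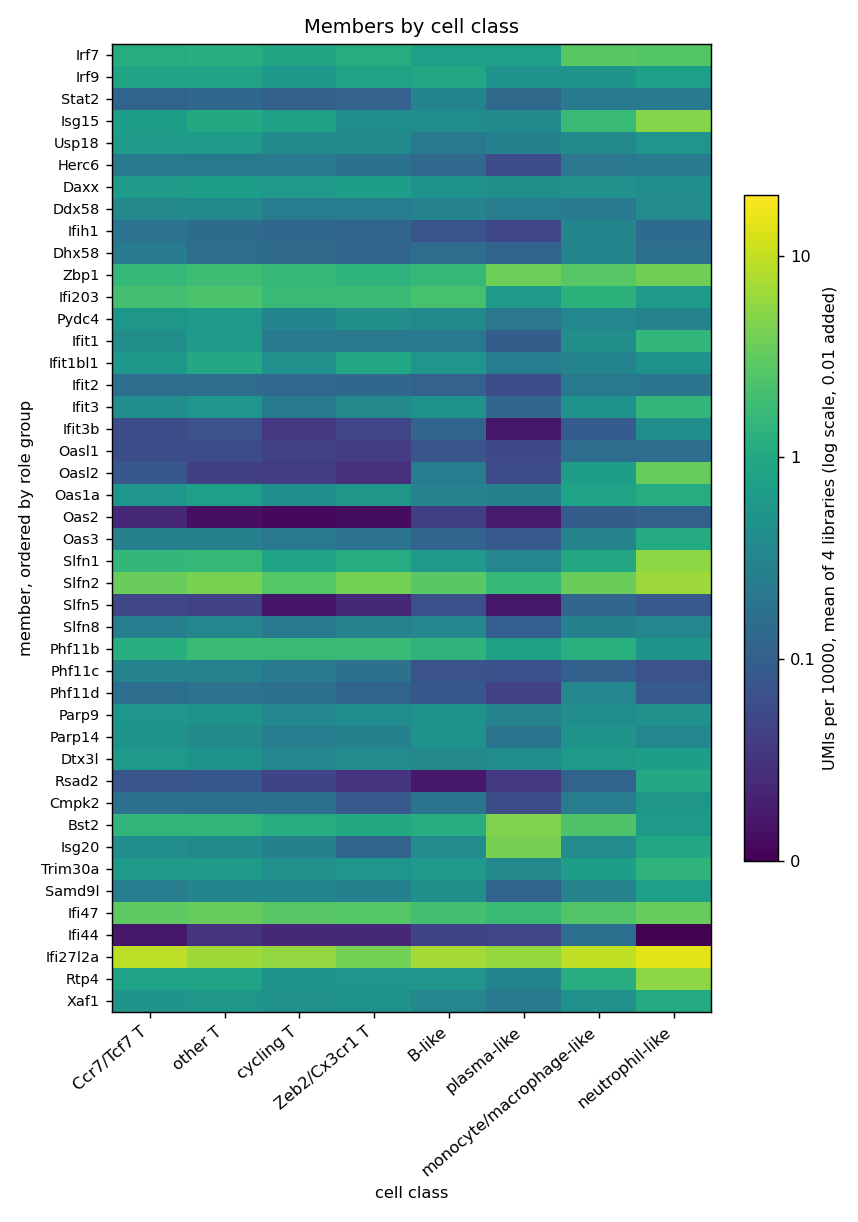
The level of each of the 44 members (rows, in role order) in each of 8 cell classes (columns), as UMIs per 10000 averaged over 4 libraries on a log colour scale with 0.01 added. Ifi27l2a is bright in every class, and the neutrophil-like column is the brightest for 14 members that peak there in all 4 libraries.

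Members did not share a single pattern across classes. In all 4 libraries 14 members were highest in the neutrophil-like cells: Isg15, Ifit1, Ifit3, Ifit3b, Rsad2, Rtp4, Oasl2, Oas1a, Oas3, Slfn1, Slfn2, Ifi27l2a, Cmpk2 and Xaf1. Only 8 of the 14 had at least 10 UMIs there in every library, and in WT2 Ifit3b rested on 1 UMI and Cmpk2 on 2. Oas1a, with 10 to 18 UMIs, was at 0.663 in the neutrophil-like cells of KO1 against 0.641 in its other T cells, within counting error. Oasl2 was at 3.45, 3.31, 2.48 and 4.45 per 10000 in these cells and at 0.033, 0.019, 0.045 and 0.033 in the other T cells. Isg15 was at 4.46, 4.82, 4.18 and 6.53 in neutrophil-like cells, well above its level over all cells in each library. Ifi44, Phf11d and Ifih1 peaked in monocyte/macrophage-like cells and Isg20 and Bst2 in plasma-like cells, where Bst2 was at 4.43, 4.17, 5.86 and 3.75. Ifi44 had no UMI in the neutrophil-like cells.

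The members also differed in how much of their RNA came from cells of other types. Over the 4 libraries, clusters of other cell types held 9.66% of all member UMIs, but 68.9% of those of Oasl2, 60.6% of Oas2, 33.2% of Ifi44 and 26.6% of Isg20. Phf11c lay at the other end with 2.66%. Isg15, at 14.0%, and Irf7, at 14.2%, were mostly in T cell clusters.

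Single T cells were compared after thinning each to 1000 UMIs, which kept 4607, 4965, 7511 and 6090 cells of the T cell clusters. A T cell held on average 3.38 member UMIs in WT1, 2.90 in KO1, 4.51 in WT2 and 3.54 in KO2. The variance was 2.46, 2.24, 3.43 and 2.74 times the mean, where a Poisson count would give 1. The members were spread more unevenly over cells than such a count in all 4 libraries, and the top 10% of cells held 28.3%, 28.7%, 29.5% and 28.8% of the member UMIs.

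Cells with at least 10 member UMIs, the upper tail of the range and not a cell type, were 3.26% of WT1 (Wilson 95% interval 2.78 to 3.81), 2.09% of KO1 (1.73 to 2.53), 7.30% of WT2 (6.73 to 7.91) and 3.71% of KO2 (3.27 to 4.22). The share was lower in Bcl3-/- cells within each animal, and KO2 overlapped WT1 in interval. The intervals cover counting error only. In the Zeb2/Cx3cr1 cells 11 of 807, 5 of 839, 20 of 922 and 6 of 1292 cells reached this number. In the Ccr7/Tcf7 cells it was 17 of 334, 4 of 171, 33 of 456 and 1 of 188, which in chimera 1 is 5.09% (3.20 to 8.00) against 2.34% (0.913 to 5.86), with overlapping intervals, and in chimera 2 is 7.24% (5.20 to 9.99) against 0.532% (0.0940 to 2.95).

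**Figure D4:**
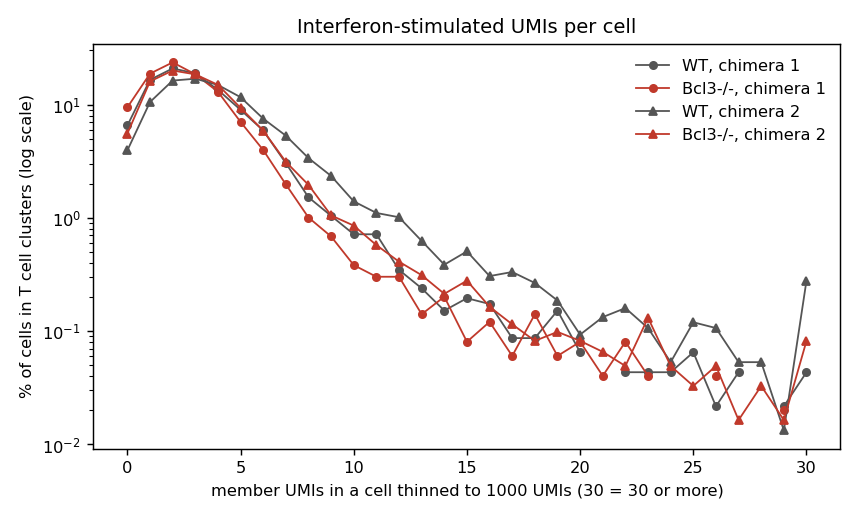
Share of T cell cluster cells in percent (vertical axis, log scale) by the number of member UMIs in a cell thinned to 1000 UMIs (horizontal axis, 30 standing for 30 or more), with a line per library. WT2 has the highest share of cells with at least 10 member UMIs, 7.30%, and the lines cross at some higher numbers, where cells are few.

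Each member was correlated with the sum of the rest across the T cells of a library. Over 4 libraries the mean correlation of a member with the sum of the rest was 0.267 for Ifit1, 0.245 for Isg15, 0.207 for Ifit3, 0.161 for Rtp4, 0.141 for Ifi27l2a and 0.137 for Rsad2, and it was lowest for Stat2 (0.017) and Samd9l (0.030). These are weak correlations over 4607 to 7511 cells per library that share library and depth, and in sparse counts a correlation this weak is no finding. Over the 43 members with a value, the correlation of this measure with the blocked log2 fold change was -0.333 (Pearson) and -0.283 (Spearman), as a description.

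**Figure D5:**
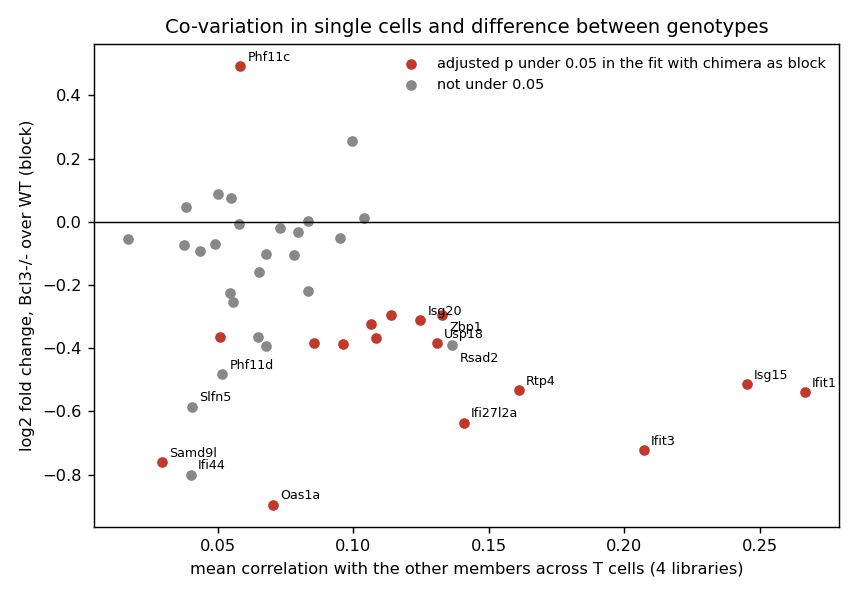
For the 43 members with a value, the mean correlation with the other members across T cells (horizontal axis) and the blocked log2 fold change between Bcl3-/- and WT (vertical axis), with red points for members past an adjusted p of 0.05 with the block. Ifit1 lies farthest right at 0.267 and Stat2 farthest left at 0.017, and red points occur across the range.

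Outside the members, 4458 genes were compared with the members' sum across T cells, with correlations that were again weak. The highest included Ly6a (0.154), Plac8, Shisa5, Samhd1, AW112010, Igtp, Pyhin1, Ltb and Ms4a4b (0.0942). Of these Ly6a, the Sca-1 surface antigen, fell by 0.56 on the log2 scale with the block (adjusted p = 0.000318), Igtp, an immunity-related GTPase, by 0.70 (adjusted p = 1.87e-05), Ltb, lymphotoxin beta, by 0.50 (adjusted p = 0.000505) and AW112010 by 0.35 (adjusted p = 0.0252). Plac8, Shisa5, Samhd1, Pyhin1 and Ms4a4b did not pass.

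Genes that make or carry the interferon signal were counted from a list of their own. Of 32 signalling genes, 25 were tested, and none passed without the block. With it 2 were lower and 2 higher (of 25, where 4.84% of all genes were lower and 4.81% higher), with the interferon-gamma receptor chain Ifngr1 among the lower. The kinase Jak1 and the factor Irf2 were higher, and the median over those tested was 0.03 on the log2 scale. Ifngr1 was at 5.80 in WT1, 4.48 in KO1, 5.95 in WT2 and 4.95 in KO2. Both Bcl3-/- libraries were below both WT libraries, and it fell by 0.34 ± 0.07 on the log2 scale with the block (adjusted p = 0.00677, and 0.194 without). The receptor chains Ifnar1 and Ifnar2 were at 0.579, 0.515, 0.743 and 0.668 and at 0.306, 0.328, 0.304 and 0.436, and neither passed. Ifnb1, Ifna1, Ifna2, Ifna4 and Ifna5 had no UMI in any cell, which over the 82748990 UMIs of the 4 libraries allows up to 0.000363 per 10000 (3 counts).

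A further list holds genes known for induction by interferon-gamma. Of 25 identifiers 24 were tested. Without the block Gbp6, a guanylate-binding protein gene, was lower by 1.71 ± 0.14 on the log2 scale (adjusted p = 0.0104), at 0.426 in WT1, 0.157 in KO1, 0.517 in WT2 and 0.133 in KO2. Neither Bcl3-/- library came near the WT libraries. With the block 11 were lower and the peptide transporter Tap2 was higher, where 4.84% of all genes were lower and 4.81% higher, and the median was -0.25.

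The promoter motif and the difference between genotypes were set side by side. Of the 15 members with an ISRE match, 6 were lower with the block, where 4.84% of all genes were. The median log2 fold change of the 15 was -0.32. Of the 20 with a promoter entry and no match, 4 were lower, against the same 4.84%, with a median of -0.13. The 9 members without a promoter entry, among them Ifi27l2a, Usp18, Rtp4 and Zbp1, were not searched. The presence of the letters was not tested as a cause of the difference.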

How the data were processed

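Libraries were prepared with the 10x 3′ v2 kit and processed, per the labels and the submitters' processing notes, with bcl2fastq 2.17, Cell Ranger 2.2.0 and mouse build mm10. The deposited matrices hold UMI counts as the authors' pipeline gave them, without normalization, for every barcode of the kit. Barcodes with 500 or more genes and no more than 10% mitochondrial UMIs were kept as cells, a filter taken from the study's methods, and counts were summed per library. No column of per-sample values was left unused.

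Counts were tested with edgeR 4.0.16 (quasi-likelihood, TMM, filterByExpr; R 4.3.3, limma 3.58.1) with genotype only, and p-values were adjusted by Benjamini-Hochberg over all genes tested. WT and Bcl3-/- libraries of the same number come from the same chimera according to the labels, and their deviations from the genotype means correlated (r = 0.291 over 6863 genes), so the fit with the chimera as replicate block is printed beside each result. DESeq2 1.42.0 was an alternative. p-values rest on the spread between these 4 libraries, with edgeR drawing each gene's variance towards a trend over all genes. With 1 residual degree of freedom under the block, a member's p-value and SE rest largely on that trend. Oas1a, at log2 ratios of -0.53 and -1.24 in the 2 animals, had a blocked SE of 0.13. The SE was computed from the fold change and its F statistic. Seurat 5.3.0 clustered each library (2000 variable genes without interferon genes, 15 components, 20 neighbours, resolution 0.8). Member positions are from GENCODE vM21 (GRCm38), and promoter sequences from RefSeq GRCm38.p6. On simulated counts the all-cells fit recovered 64% of 2-fold and 97.5% of 4-fold changes (66.5% and 97.5% with the block). The simulation gave every gene the same dispersion and held no difference between animals. Its changes were also larger than those of the members called lower (log2 -0.90 to -0.29). These shares are therefore not the power of the fits on the real counts.

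Members and gene lists were chosen with earlier results of these data known. Named were members called in either fit, the 10 most abundant members, the 5 with the largest absolute log2 fold change, and the 10 genes correlating most with the member sum, of which 1 is not reported here. Alternatives were other scaling, cell filters, depth, T cell definition and leaving out each library.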

Additional observations from a re-analysis of the deposited data

Results flagged for a closer look

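Slfn1 moved in opposite directions in the 2 animals. Its log2 ratio, Bcl3-/- over WT, was 0.14 in chimera 1 (95% counting interval 0.07 to 0.22) and -0.08444 in chimera 2 (-0.16 to -0.01). The difference between the animals was not tested.

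Members were also found outside the cells, in barcodes with 10 to 100 UMIs, at 38.1 per 10000 in WT1, 32.3 in KO1, 44.5 in WT2 and 39.1 in KO2. These are above the level in kept cells of WT1, KO1 and KO2 beyond counting error, and in WT2 the counting interval of 41.0 to 48.3 includes the cells' 43.7. Without Ifi27l2a the values were 30.01, 27.7, 33.0 and 32.3. Their part in the cells' values was not tested.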

How the results depend on the processing

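The count of members called lower in Bcl3-/- cells depended most on pairing the libraries by animal. With the chimera as replicate block it was 16 over all cells and 16 in T cell clusters, against 0 without it, and 1 member was higher in each. The same block gave 11 lower and 1 higher with equal cells thinned to 1000 UMIs, 15 lower with T cells gated on marker UMIs, and 18 lower and 1 higher in T cell clusters without KO2 cluster 13. These were chosen after seeing the data. DESeq2 gave 3 lower in each set, and the gate without the block gave 1. Leaving out each library in turn gave 0 to 5 lower over all cells and 0 to 2 in T cell clusters, and no member higher. The blocked fit could not be run with a library left out, since no residual degrees of freedom remain. In the fits without 1 library, the lone library of its genotype is assumed to vary like the other. No other alternative called a member over all cells or in T cell clusters.

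The sum's difference of -6.77 kept its direction, at -6.98 with at least 800 genes per cell, -6.78 with at most 5% mitochondrial UMIs, -6.17 with equal thinned cells, -7.05 in T cell clusters, -6.38 as a mean over cells and -3.82 without Ifi27l2a. It ran from -11.97 to -1.56 with a library left out. Averaged over 4 libraries, class sums at resolution 0.4 or with 2 KO2 clusters reassigned stayed within the spread between libraries, but single libraries moved by more: WT1 Zeb2/Cx3cr1 cells went from 29.26 to 33.74 and KO1 Ccr7/Tcf7 cells from 29.96 to 34.38.

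Values near 0 changed sign. Slfn1 was at -0.004713 with RLE factors, -0.004706 with DESeq2, -0.01138 with at least 800 genes and -0.1574 to 0.1746 with a library left out. Phf11b was at -0.007882, -0.007861 and -0.001119 under the same 3 settings, -0.0006534 without a filter, -0.002597 with at most 5% mitochondrial UMIs and -0.08774 to 0.08462 with a library left out. Ifi203 was at 0.004693 with at least 800 genes and ran from -0.1008 to 0.02645 with a library left out. The cause was not tested.

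With 2 libraries per genotype and 1 residual degree of freedom under the block, the spread is poorly known. Median depth per cell was lowest in WT2, and genes such as Oas2 and Ifi44 had too few UMIs for a firm direction. Members that share 3′ sequence with paralogs stay uncertain.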
